A study of Homo sapiens with 12 samples.

Results

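The 32 genes described here encode the human leukocyte antigen (HLA) proteins and the machinery that supplies them with peptides. They were taken by name from the per-library count files, which list 23228 genes, and were divided into 16 class I genes, 13 class II genes and 3 genes for transcription factors that serve both classes. The RNA came from SUM149PT, an established line of an inflammatory, triple-negative breast cancer, in 4 groups of 3 libraries each, lettered A, B and C. Combination cells received tazemetostat, which inhibits the histone methyltransferase EZH2, at 5 µM together with ipatasertib, which inhibits the AKT kinases, at 5 µM. Ipatasertib cells received 5 µM ipatasertib alone, tazemetostat cells received 5 µM tazemetostat alone, and DMSO cells received the solvent. Tazemetostat or DMSO was present for several days beforehand, whereas ipatasertib was added for the last 24 h, when all 4 groups were in reduced serum. All 12 libraries carried the label WT and came from 1 cell line. The labels do not say that replicates were separate cultures, so the p-values measure the spread between these libraries, which may be technical.

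Class I molecules are made by nearly all nucleated cells and show fragments of the cell's own proteins to cytotoxic T cells. The proteasome and its interferon-inducible subunits cut proteins into peptides, the TAP transporter carries the peptides into the endoplasmic reticulum, aminopeptidases trim them, and tapasin loads them onto a heavy chain paired with beta-2-microglobulin. Class II molecules are made mainly by professional antigen-presenting cells and show endocytosed material to helper T cells, and epithelial cells can make them when the transactivator CIITA is present. Promoters of both classes carry a module of X, X2 and Y boxes that binds the RFX factors, CREB-family factors and NF-Y. NLRC5 is recruited to that module at class I genes and CIITA at class II genes.

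RefSeq promoter windows (GRCh38.p14), running from 250 bases before to 50 after the annotated start, were matched by symbol for 28 of the 32 genes. They are the reference sequence and not the alleles of this line. The windows of 4 genes are shown because these genes stand for the patterns described here: a class I heavy chain, the transporter subunit, a class II chain and the class II peptide editor. Capitals mark matches, on either strand, to 5 short motifs that were chosen after these promoters had been looked at: the Y box core CCAAT, an X box core ACNGATGA, the X2 core TGACG, an interferon response core GAAANNGAA and a class I interferon element GAANTGAAA. HLA-B lies at chr6:31357130-31357429, TAP2 at chr6:32838690-32838989, HLA-DRB1 at chr6:32589799-32590098 and HLA-DMB at chr6:32940979-32941278, all on the minus strand and written here in the direction of transcription.
HLA-B: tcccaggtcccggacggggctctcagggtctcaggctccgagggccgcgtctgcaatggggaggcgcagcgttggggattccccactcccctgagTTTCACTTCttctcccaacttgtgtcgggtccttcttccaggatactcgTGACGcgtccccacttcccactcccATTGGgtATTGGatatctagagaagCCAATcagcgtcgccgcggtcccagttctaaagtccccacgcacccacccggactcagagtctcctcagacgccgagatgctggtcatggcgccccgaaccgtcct
TAP2: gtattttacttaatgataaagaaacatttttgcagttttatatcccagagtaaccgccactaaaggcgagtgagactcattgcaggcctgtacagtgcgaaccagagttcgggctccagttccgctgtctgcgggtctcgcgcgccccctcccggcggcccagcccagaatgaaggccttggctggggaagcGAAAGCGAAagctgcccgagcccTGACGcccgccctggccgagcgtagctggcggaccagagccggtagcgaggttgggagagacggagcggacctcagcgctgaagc
HLA-DRB1: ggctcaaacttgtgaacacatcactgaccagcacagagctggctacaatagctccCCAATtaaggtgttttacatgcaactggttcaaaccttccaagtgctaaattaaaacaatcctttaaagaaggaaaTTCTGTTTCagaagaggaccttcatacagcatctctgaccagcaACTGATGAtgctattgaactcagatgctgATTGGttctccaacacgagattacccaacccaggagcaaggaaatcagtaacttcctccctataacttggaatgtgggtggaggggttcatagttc
HLA-DMB: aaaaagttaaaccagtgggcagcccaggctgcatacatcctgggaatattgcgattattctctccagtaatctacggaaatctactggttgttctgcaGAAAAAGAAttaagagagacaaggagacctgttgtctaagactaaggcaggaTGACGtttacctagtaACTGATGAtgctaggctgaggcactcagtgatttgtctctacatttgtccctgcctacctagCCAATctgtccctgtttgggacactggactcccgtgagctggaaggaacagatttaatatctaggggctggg

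In the HLA-B window the class I interferon element began at -155, counted from the start site, followed by the X2 core at -106 and Y box cores at -81, -74 and -56. TAP2 held the interferon response core at -58 and the X2 core at -35. In HLA-DRB1 an interferon response core began at -119, and the X box core stood at -75 and the nearer Y box core at -46. HLA-DMB held an interferon response core at -152, the X2 core at -100, the X box core at -84 and a Y box core at -22. No matches overlapped in these 4 windows. The X box core was found in 6 of 11 class II windows, in 0 of 14 class I windows and in 2.26% of all 35116 windows in the table. The interferon response core was found in 9 of 14 class I windows, in 5 of 11 class II windows and in 8.11% of all windows. The class I interferon element occurred in HLA-B, in HLA-C, in PSMB8 and in 1.79% of all windows, and in PSMB8 it overlapped the interferon response core. CCAAT was common, in 8 of 14 class I windows, 10 of 11 class II windows and 34.6% of all windows, and TGACG stood in 24.6%. A match describes letters only, and its absence says only that these letters are not in the window.

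Levels are given in CPM, counts scaled to library size with TMM factors, and a gene counted as changed where edgeR's quasi-likelihood test with Benjamini-Hochberg adjustment over all 14874 genes tested gave an adjusted p under 0.05. Libraries held 22355242 to 49970540 gene counts. For ratios to DMSO where the DMSO group held 0 counts, a floor of 3 counts over that group was used. This floor equalled 0.0282 CPM and covers counting error only. Within a library, 3 counts equalled 0.0602 to 0.130 CPM, and a library count of 0 is printed as 0 CPM. Reads that mapped to several places made up 11.2% to 12.5% of each library with ipatasertib, alone or combined, and 9.39% to 10.6% of each library without it. They were not assigned to genes, so the values of HLA genes, which have near-identical relatives, are uncertain. Reads that matched no counted feature, which need not lie outside genes, split likewise, at 22.8% to 25.7% with ipatasertib and 17.8% to 20.6% without it. HLA-C, HLA-E and HLA-DMA below divide the libraries the same way, and the part of these shares in their values was not tested. Tazemetostat A and combination B stood apart, with a chi-square per degree of freedom of 15.2 to 26.1 in the 4 replicate pairs that held them, against 2.67 to 6.87 in the other 8 pairs. Without TMM factors the median of all genes moved by 0.12 (log2) for ipatasertib and by 0.13 for the combination, both against DMSO. The share of changed genes that were higher was then 62.6% in place of 51.4% for the combination, 63.1% in place of 46.9% for ipatasertib and 69.6% in place of 54.6% for tazemetostat. Markers of the labelled epithelial cells summed to 1293 to 1307 CPM in combination libraries, 1390 to 1424 CPM in ipatasertib libraries, 1978 to 2101 CPM in tazemetostat libraries and 2460 to 2538 CPM in DMSO libraries. The sum of 6 fibroblast markers, which include collagens, was 80.2 to 86.4 CPM with the combination, 343 to 381 CPM with ipatasertib, 112 to 118 CPM with tazemetostat and 549 to 576 CPM with DMSO, and its part in the results was not tested.

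Where they changed against DMSO, transcripts for the class I chains were higher and those for the supply of peptide were lower. Of the 16 class I genes, 15 could be tested, and HLA-G, a heavy chain best known from placenta, held only 1 to 8 counts per library. Against DMSO, the combination raised 5 class I genes and lowered 9. The background was 36.5% of all genes tested higher and 34.5% lower. Ipatasertib alone raised 4 and lowered 6, with 25.4% of all genes higher and 28.7% lower. Tazemetostat alone raised 1 and lowered 6, with 25.1% of all genes higher and 20.9% lower. The split followed the role of the genes: all changed chains were higher and all changed peptide supply genes were lower, in each of these 3 comparisons with all 12 libraries. Without tazemetostat A and combination B, HLA-E, a chain, was lower with tazemetostat, at -0.12 (adjusted p = 0.0344).

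HLA-B, a classical heavy chain that presents peptides to cytotoxic T cells, had 124, 112 and 128 CPM in combination libraries, 72.6, 80.7 and 79.8 CPM in ipatasertib libraries, 106, 100.01 and 98.4 CPM in tazemetostat libraries and 64.2, 72.6 and 68.6 CPM in DMSO libraries. The combination libraries were the highest and the tazemetostat libraries the next, with no overlap, whereas the lowest ipatasertib library and the highest DMSO library were both at 72.6 CPM when rounded. The log2 change against DMSO was 0.82 ± 0.07 (SE; adjusted p = 1.5e-09) for the combination, 0.57 ± 0.07 (adjusted p = 1.31e-06) for tazemetostat and 0.18 ± 0.07 (adjusted p = 0.0299) for ipatasertib. The ipatasertib call was lost when DMSO A, DMSO C, ipatasertib B or ipatasertib C was left out, with adjusted p-values of 0.0951, 0.0669, 0.118 and 0.0636. HLA-B was the only one of the 5 chains tested that passed the test for tazemetostat against DMSO with all 12 libraries.

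HLA-C, the other classical heavy chain in the list, had 185, 146 and 175 CPM in combination libraries, 149, 160.1 and 151 CPM in ipatasertib libraries, 139, 124 and 119 CPM in tazemetostat libraries and 114, 125 and 125 CPM in DMSO libraries. HLA-E, a ligand of an inhibitory receptor on natural killer cells, had 167, 156 and 159.6 CPM in combination libraries, 154, 159 and 155 CPM in ipatasertib libraries, 126, 114 and 113 CPM in tazemetostat libraries and 114, 128 and 122 CPM in DMSO libraries. For both genes every library with ipatasertib, alone or combined, lay above every library without it. HLA-C rose by 0.48 ± 0.08 with the combination (adjusted p = 1.91e-05) and by 0.34 ± 0.08 with ipatasertib (adjusted p = 0.00116), and its change with tazemetostat was 0.07 ± 0.08 (adjusted p = 0.483). HLA-E rose by 0.41 ± 0.06 with the combination (adjusted p = 6.28e-06) and by 0.36 ± 0.06 with ipatasertib (adjusted p = 4.82e-05), and its change with tazemetostat was -0.05 ± 0.06 (adjusted p = 0.547).

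B2M, the light chain shared by all class I molecules, averaged 444 ± 63.8 CPM in combination cells, 417 ± 14.0 CPM in ipatasertib cells, 369 ± 19.8 CPM in tazemetostat cells and 345 ± 23.6 CPM in DMSO cells (SD, n = 3 each). It rose by 0.37 ± 0.08 with the combination (adjusted p = 0.00042) and by 0.27 ± 0.08 with ipatasertib (adjusted p = 0.00709), with every treated library above every DMSO library in both comparisons. HLA-F, a heavy chain with a less settled role, averaged 15.0 ± 0.633 CPM in combination cells, 13.6 ± 1.47 CPM in ipatasertib cells, 14.9 ± 2.10 CPM in tazemetostat cells and 12.6 ± 1.24 CPM in DMSO cells (SD, n = 3 each). Its change of 0.26 ± 0.11 with the combination (adjusted p = 0.0339) was lost without DMSO A, ipatasertib A, tazemetostat B, combination A or combination C, where the adjusted p was 0.155, 0.0547, 0.0507, 0.0749 and 0.0842. The median change of the 5 chains was 0.41 for the combination, beside 0.02 for all genes tested, 0.27 for ipatasertib, beside -0.01, and 0.10 for tazemetostat, beside 0.02.

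**Figure D1:**
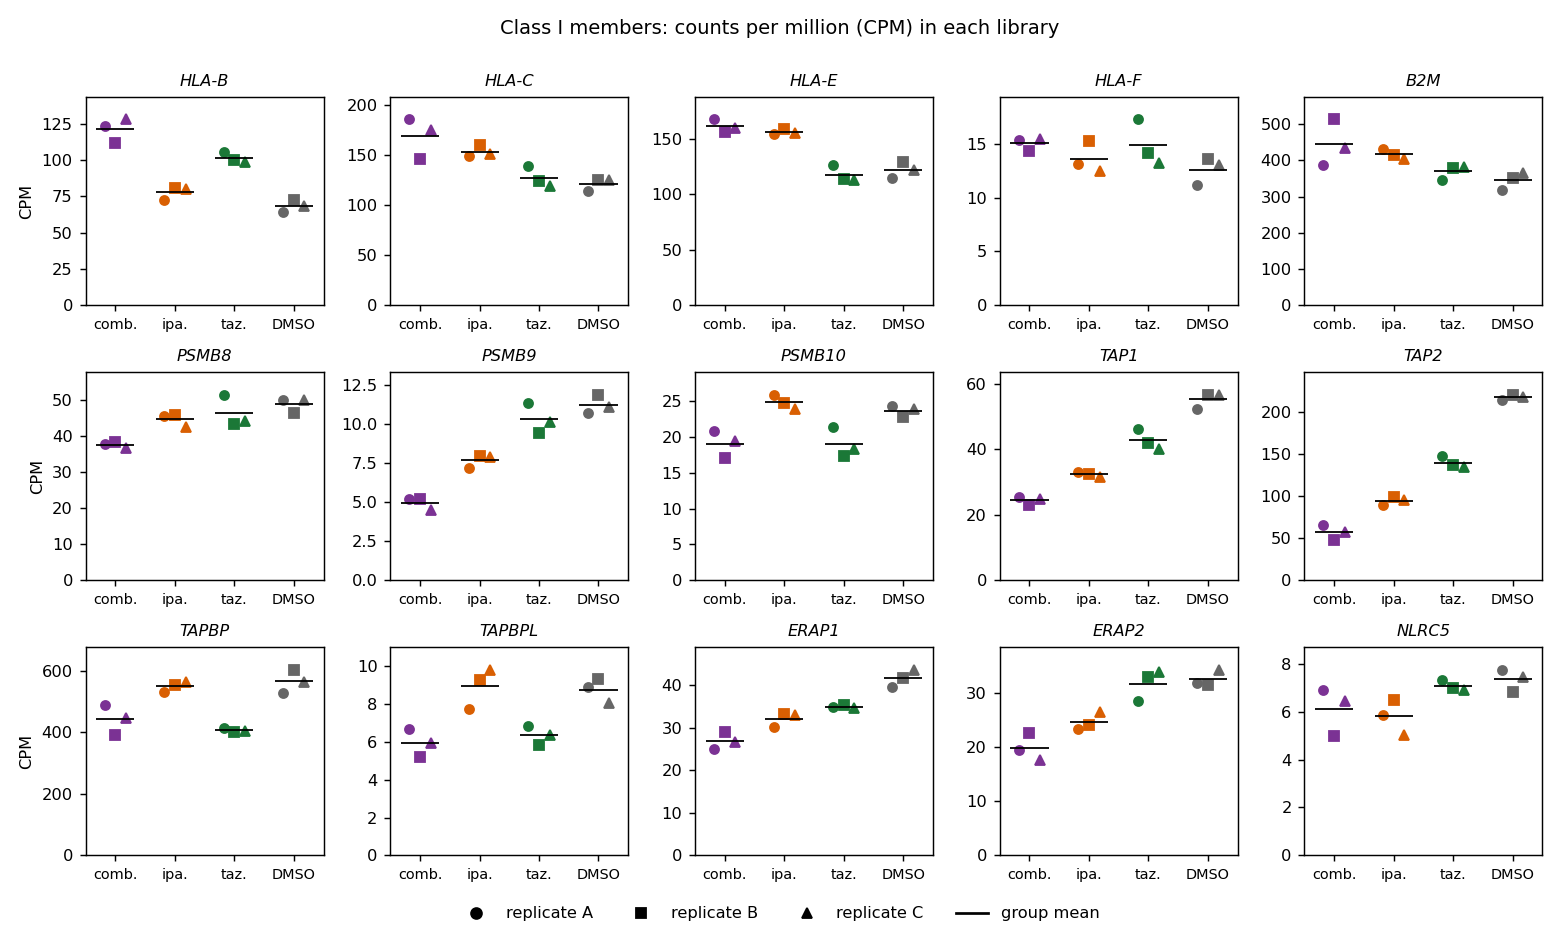
Level of each class I gene tested, in CPM on a linear axis from 0, in the combination, ipatasertib, tazemetostat and DMSO groups. Points are libraries with 1 marker per replicate letter and lines are group means; HLA-B is highest with the combination (112 to 128 CPM), and TAP2 is lowest there (47.8 to 65.5 CPM) and highest with DMSO (214 to 221 CPM).

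The peptide supply genes moved the other way. All 9 were lower with the combination than with DMSO and lower than with ipatasertib alone, and 6 were lower than with tazemetostat alone. The background for lower genes was 17.3% for the combination against ipatasertib and 30.8% for the combination against tazemetostat. The median change against DMSO was -0.63 for the combination, -0.37 for ipatasertib and -0.32 for tazemetostat, beside the medians of all genes given for the chains.

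TAP2, one subunit of the peptide transporter, had the largest change of all class I genes tested in each comparison with DMSO. It had 65.5, 47.8 and 57.9 CPM in combination libraries, 89.4, 98.5 and 95.9 CPM in ipatasertib libraries, 148, 137 and 135 CPM in tazemetostat libraries and 214, 221 and 218 CPM in DMSO libraries. The 4 groups did not overlap and followed that order from low to high. TAP2 fell by 1.93 ± 0.08 (log2) with the combination (3.81-fold, adjusted p = 1.11e-13), by 1.20 ± 0.08 with ipatasertib (2.30-fold, adjusted p = 3.84e-10) and by 0.64 ± 0.08 with tazemetostat (1.56-fold, adjusted p = 2.53e-06). The combination was also lower than ipatasertib alone, at -0.73 ± 0.08 (adjusted p = 7.95e-07), and lower than tazemetostat alone, at -1.29 ± 0.08 (adjusted p = 9.16e-11).

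TAP1, the other transporter subunit, had 25.6, 23.0 and 24.9 CPM in combination libraries, 33.0, 32.4 and 31.6 CPM in ipatasertib libraries, 46.2, 41.9 and 40.2 CPM in tazemetostat libraries and 52.5, 56.8 and 56.8 CPM in DMSO libraries. It showed the same order as TAP2, again without overlap. TAP1 fell by 1.17 ± 0.07 with the combination (adjusted p = 1.45e-11), by 0.77 ± 0.07 with ipatasertib (adjusted p = 1.92e-08) and by 0.37 ± 0.07 with tazemetostat (adjusted p = 0.000167). ERAP1, an aminopeptidase that trims peptides in the endoplasmic reticulum, had 25.0, 29.1 and 26.7 CPM in combination libraries, 30.2, 33.3 and 33.1 CPM in ipatasertib libraries, 34.9, 35.4 and 34.6 CPM in tazemetostat libraries and 39.6, 41.8 and 43.7 CPM in DMSO libraries. Its groups also kept apart in that order, and it fell by 0.63 ± 0.07 with the combination (adjusted p = 1.4e-07), by 0.37 ± 0.07 with ipatasertib (adjusted p = 0.000158) and by 0.25 ± 0.07 with tazemetostat (adjusted p = 0.00566). Among class I genes, TAP2, TAP1, ERAP1 and HLA-B passed in all 3 comparisons with DMSO and in both comparisons of the combination with a single agent. How many of all genes did so was not counted, so the pattern is not read as particular to these genes.

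PSMB9, an interferon-inducible proteasome subunit whose gene lies next to TAP1, had 5.23, 5.21 and 4.49 CPM in combination libraries, 7.22, 7.98 and 7.91 CPM in ipatasertib libraries, 11.3, 9.42 and 10.2 CPM in tazemetostat libraries and 10.7, 11.9 and 11.1 CPM in DMSO libraries. Tazemetostat and DMSO libraries overlapped, and both other groups lay below them. PSMB9 fell by 1.18 ± 0.10 with the combination (adjusted p = 4.35e-09) and by 0.55 ± 0.10 with ipatasertib (adjusted p = 0.000106), and its change with tazemetostat was -0.12 ± 0.09 (adjusted p = 0.292). ERAP2, the second trimming aminopeptidase, had the same pattern: it fell by 0.72 ± 0.09 with the combination (adjusted p = 6.65e-07) and by 0.40 ± 0.09 with ipatasertib (adjusted p = 0.000786), with -0.04 ± 0.09 for tazemetostat (adjusted p = 0.761). Its difference between the combination and ipatasertib, -0.32 ± 0.09 (adjusted p = 0.0102), was lost without combination C, at -0.25 (adjusted p = 0.0602). PSMB8, another inducible proteasome subunit, passed only with the combination among the comparisons with DMSO, at -0.38 ± 0.07 (adjusted p = 0.000103), with a mean of 37.7 ± 0.834 CPM in combination cells against 48.9 ± 2.14 CPM in DMSO cells (SD, n = 3 each). Tazemetostat A was the highest of all 12 libraries for PSMB8, and without it the change with tazemetostat was -0.20 (adjusted p = 0.0157).

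For 3 peptide supply genes the lower level went with tazemetostat. TAPBP, which encodes tapasin, the chaperone that joins class I molecules to the transporter, averaged 443 ± 49.0 CPM in combination cells, 549 ± 17.8 CPM in ipatasertib cells, 406 ± 7.47 CPM in tazemetostat cells and 565 ± 38.3 CPM in DMSO cells (SD, n = 3 each). It fell by 0.35 ± 0.07 with the combination (adjusted p = 0.000157) and by 0.48 ± 0.07 with tazemetostat (adjusted p = 1.65e-05), and its change with ipatasertib was -0.04 ± 0.07 (adjusted p = 0.637). TAPBPL, a peptide editor related to tapasin, fell by 0.56 ± 0.12 with the combination (adjusted p = 0.000275) and by 0.46 ± 0.11 with tazemetostat (adjusted p = 0.00216), with 0.02 ± 0.11 for ipatasertib (adjusted p = 0.905). PSMB10, the last inducible proteasome subunit of the list, fell by 0.31 ± 0.09 with the combination (adjusted p = 0.0036) and by 0.32 ± 0.09 with tazemetostat (adjusted p = 0.00546), with 0.07 ± 0.09 for ipatasertib (adjusted p = 0.51). Without TMM factors the change of PSMB10 with the combination was -0.18 (adjusted p = 0.0818).

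NLRC5, the transactivator of class I genes, had 6.91, 4.98 and 6.43 CPM in combination libraries, 5.87, 6.50 and 5.04 CPM in ipatasertib libraries, 7.34, 7.001 and 6.93 CPM in tazemetostat libraries and 7.76, 6.83 and 7.45 CPM in DMSO libraries. Combination B was the lowest library and combination A lay among the DMSO libraries. The change was -0.26 ± 0.12 with the combination (adjusted p = 0.0545), -0.34 ± 0.12 with ipatasertib (adjusted p = 0.0238) and -0.05 ± 0.11 with tazemetostat (adjusted p = 0.721). The ipatasertib call was lost without DMSO A, DMSO C, ipatasertib A or ipatasertib C, at adjusted p-values of 0.13, 0.0546, 0.0665 and 0.158, and without TMM factors, at 0.132. The change with the combination passed the test, at -0.33, -0.28, -0.28 and -0.36, when DMSO B, ipatasertib B, tazemetostat A or combination A was left out, with adjusted p-values of 0.04, 0.046, 0.047 and 0.0164.

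**Figure D2:**
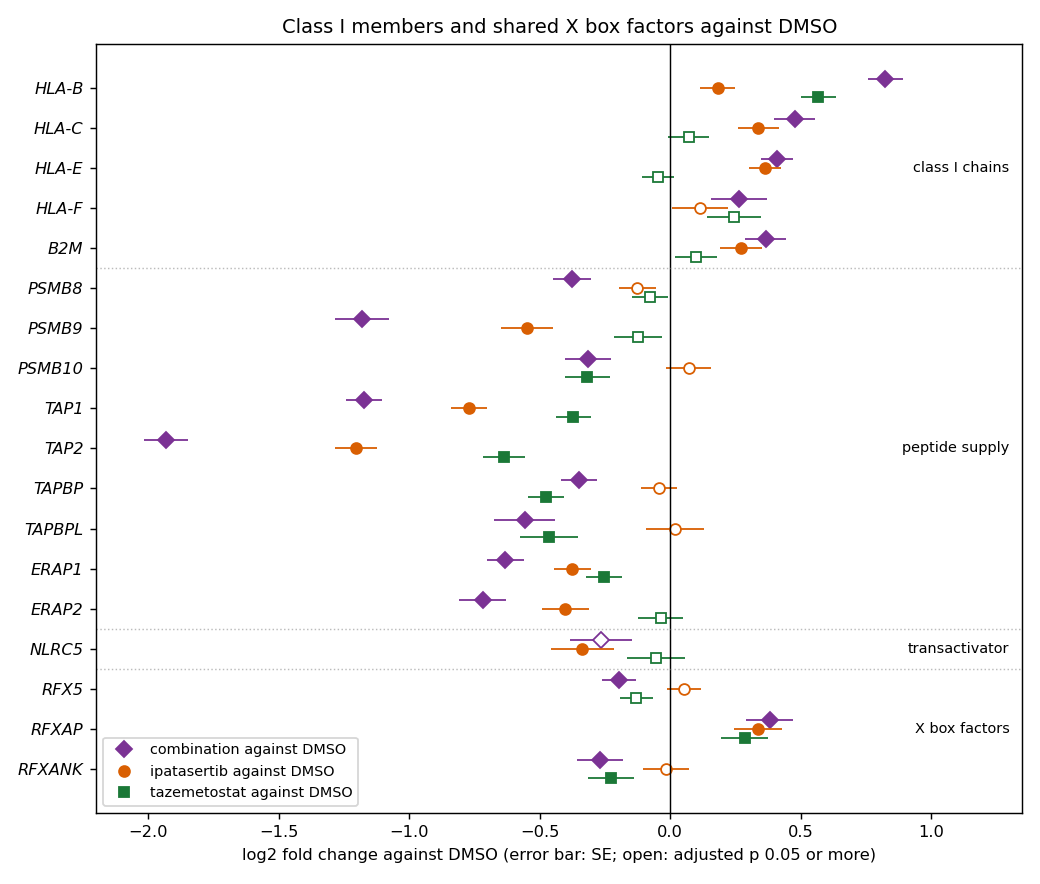
Log2 fold change against DMSO of the 15 class I genes tested and the 3 X box factor genes, for the combination, ipatasertib and tazemetostat; bars are SE and open symbols did not pass the test. Chains lie to the right of 0 with the combination (0.26 to 0.82) and peptide supply genes to the left (-1.93 to -0.31).

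Class II transcripts were scarce in every group, at most 2.15 CPM for any gene in any library, and several of them were found almost only in cells that had received tazemetostat. Of the 13 class II genes, 9 passed the filter on low counts. HLA-DPA1, HLA-DQA1 and HLA-DRB5, which encode chains, and HLA-DOA, one chain of the peptide editing inhibitor HLA-DO, did not. Of the 9, 6 genes held only 0 to 6 counts over the 3 DMSO libraries together and passed through the groups where they were high, so that their count says nothing about class II genes in general. Their adjusted p-values below come after that selection, so they are not independent support for the rise. Tazemetostat raised 7 of the 9 and the combination raised 7, and ipatasertib raised 1; none was lower. Background shares for higher genes were those given for class I, but these counts include the 6 genes, so they are not read against those shares.

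HLA-DRA, the alpha chain of the HLA-DR receptor, had 0.430, 0.818 and 0.463 CPM in combination libraries, 0.0752, 0.152 and 0 CPM in ipatasertib libraries, 0.815, 0.814 and 0.843 CPM in tazemetostat libraries and 0.0234, 0.0601 and 0.0327 CPM in DMSO libraries. Summed over 3 libraries, these values stand for 51 counts with the combination, 7 with ipatasertib, 112 with tazemetostat and 4 with DMSO. The groups with tazemetostat lay above those without it. The log2 change against DMSO was 3.78 ± 0.58 for the combination (adjusted p = 9.23e-06), 4.33 ± 0.52 for tazemetostat (adjusted p = 1.38e-06) and 0.99 ± 0.90 for ipatasertib (adjusted p = 0.37). Combination B held more HLA-DRA than the other combination libraries, and without it the combination was lower than tazemetostat alone, at -0.84 (adjusted p = 0.0443), against -0.55 ± 0.31 (adjusted p = 0.127) with all libraries.

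HLA-DQB1, a beta chain, had 29, 20 and 38 counts in combination libraries, 4, 2 and 0 in ipatasertib libraries, 31, 40 and 24 in tazemetostat libraries and 2, 1 and 2 in DMSO libraries. It rose by 4.23 ± 0.51 with the combination (adjusted p = 3.32e-07) and by 3.81 ± 0.51 with tazemetostat (adjusted p = 6.57e-06). HLA-DPB1, the beta chain of HLA-DP, had 12, 10 and 17 counts in combination libraries, 2, 1 and 0 in ipatasertib libraries, 10, 8 and 16 in tazemetostat libraries and 3, 0 and 1 in DMSO libraries. Its change was 3.39 ± 0.61 with the combination (adjusted p = 5.18e-05) and 2.63 ± 0.64 with tazemetostat (adjusted p = 0.00249). For both genes every library with tazemetostat, alone or combined, lay above every library without it.

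HLA-DRB1, the main HLA-DR beta chain, whose promoter window with its X box core is printed above, had 20 counts in the combination group, 1 in the ipatasertib group, 38 in the tazemetostat group and 2 in the DMSO group. Scaled for library depth, the ratio was 11.6 for the combination against DMSO (95% interval of the counts, 2.83 to 103) and 14.9 for tazemetostat against DMSO (3.85 to 128). HLA-DPA1, the alpha chain of HLA-DP, held 4 counts with the combination, 0 with ipatasertib, 11 with tazemetostat and 0 with DMSO. With DMSO set to the floor of 3 counts over the group, tazemetostat stood 2.88-fold above it. This ratio leaves out the counting error of the 11 counts, so it is not a lower limit. HLA-DQA1, an alpha chain, held 0 counts with the combination, 1 with ipatasertib, 11 with tazemetostat and 0 with DMSO. Tazemetostat again stood 2.88-fold above the DMSO floor, with the same limit, and the combination libraries held none. HLA-DRB5, present only on some haplotypes, held 1 count with the combination, 0 with ipatasertib, 2 with tazemetostat and 1 with DMSO, and HLA-DOA held 0 in all 12 libraries.

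CD74, the invariant chain that guards the class II groove until loading, had 13, 17 and 11 counts in combination libraries, 3, 2 and 5 in ipatasertib libraries, 27, 19 and 31 in tazemetostat libraries and 3, 1 and 2 in DMSO libraries. It rose by 2.93 ± 0.55 with the combination (adjusted p = 8.82e-05) and by 3.25 ± 0.50 with tazemetostat (adjusted p = 2.91e-05). HLA-DMB, one chain of the HLA-DM editor that exchanges the invariant chain fragment for peptide, had 11, 7 and 23 counts in combination libraries, 4, 0 and 0 in ipatasertib libraries, 22, 19 and 18 in tazemetostat libraries and 0 in each DMSO library. Against the floor of 3 counts over the DMSO group, HLA-DMB was 15.9-fold higher with the combination and 15.4-fold higher with tazemetostat. These ratios leave out the counting error of the treated groups. The edgeR test gave adjusted p = 2.05e-05 for the combination and adjusted p = 4.78e-05 for tazemetostat.

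HLA-DMA, the partner chain of HLA-DMB, did not share this pattern. It had 2.08, 2.08 and 2.15 CPM in combination libraries, 2.03, 1.90 and 2.04 CPM in ipatasertib libraries, 1.37, 1.14 and 1.43 CPM in tazemetostat libraries and 1.27, 0.752 and 1.57 CPM in DMSO libraries. Every library with ipatasertib, alone or combined, lay above every library without it. HLA-DMA rose by 0.82 ± 0.21 with the combination (adjusted p = 0.0016) and by 0.74 ± 0.21 with ipatasertib (adjusted p = 0.00583), and its change with tazemetostat was 0.14 ± 0.21 (adjusted p = 0.609). It was also the only class II gene that passed for the combination against tazemetostat, at 0.68 ± 0.20 (adjusted p = 0.00583), where 29.8% of all genes were higher. For the combination against ipatasertib, 6 class II genes were higher, namely HLA-DPB1, HLA-DQB1, HLA-DRA, HLA-DRB1, HLA-DMB and CD74. These are the 6 genes that passed the filter through the groups with tazemetostat, so nothing is read from their count. HLA-DOB, the other chain of HLA-DO and a neighbour of TAP2, averaged 1.29 ± 0.172 CPM in combination cells, 1.18 ± 0.332 CPM in ipatasertib cells, 1.71 ± 0.243 CPM in tazemetostat cells and 1.14 ± 0.212 CPM in DMSO cells (SD, n = 3 each). Its change of 0.60 ± 0.21 with tazemetostat (adjusted p = 0.0266) was lost without DMSO A, DMSO B, tazemetostat A or tazemetostat B, at adjusted p-values of 0.147, 0.0925, 0.12 and 0.0579.

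CIITA, the class II transactivator, had 10, 10 and 12 counts in combination libraries, 10, 3 and 2 in ipatasertib libraries, 29, 25 and 20 in tazemetostat libraries and 13, 13 and 11 in DMSO libraries. In CPM this was 0.358, 0.372 and 0.327 with the combination, 0.251, 0.114 and 0.0869 with ipatasertib, 0.675, 0.581 and 0.401 with tazemetostat and 0.305, 0.391 and 0.360 with DMSO. Tazemetostat libraries were the highest and ipatasertib libraries the lowest, and combination libraries lay among the DMSO libraries. No comparison passed: the change was 0.01 ± 0.38 with the combination (adjusted p = 0.987), -1.05 ± 0.44 with ipatasertib (adjusted p = 0.0527) and 0.65 ± 0.32 with tazemetostat (adjusted p = 0.107). Without ipatasertib A the change with ipatasertib was -1.74 (adjusted p = 0.0195), and the difference of the combination from ipatasertib was 1.74 (adjusted p = 0.0302) in place of 1.06 ± 0.46 (adjusted p = 0.0736).

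Markers of blood cells, which include the professional class II cells, were looked at beside these values. Of 16 markers, 7 had at most 5 counts in every library, and MS4A1 and CD1C, which mark B cells and dendritic cells, were at 0 throughout. The sum of the 16 was 222 to 271 CPM in combination libraries, 289 to 302 CPM in ipatasertib libraries, 280.0 to 319 CPM in tazemetostat libraries and 367 to 420.3 CPM in DMSO libraries, nearly all of it from CD68 and CD14. Without these, a division of the list made after its values were seen, the other 14 summed to 5.65 to 6.73 CPM with the combination, 3.51 to 4.07 CPM with ipatasertib, 3.21 to 3.63 CPM with tazemetostat and 2.53 to 3.09 CPM with DMSO. PTPRC, the common leukocyte antigen, held 157 counts with the combination, 57 with ipatasertib, 46 with tazemetostat and 33 with DMSO. ITGAX, an integrin of dendritic cells and macrophages, held 122 with the combination, 20 with ipatasertib, 121 with tazemetostat and 11 with DMSO. These counts are not scaled for depth. Tazemetostat libraries held 43226082 to 49970540 gene counts and combination libraries 26024012 to 35417607. CSF1R held the most counts of the 14, at 867 over all libraries, against 293 for PTPRC and 274 for ITGAX. The values of CSF1R by group are not given here, so PTPRC and ITGAX do not stand for the 14. The part of these markers in the class II values was not tested. In such bulk RNA, more cells with class II transcripts and more class II RNA per cell cannot be told apart.

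**Figure D3:**
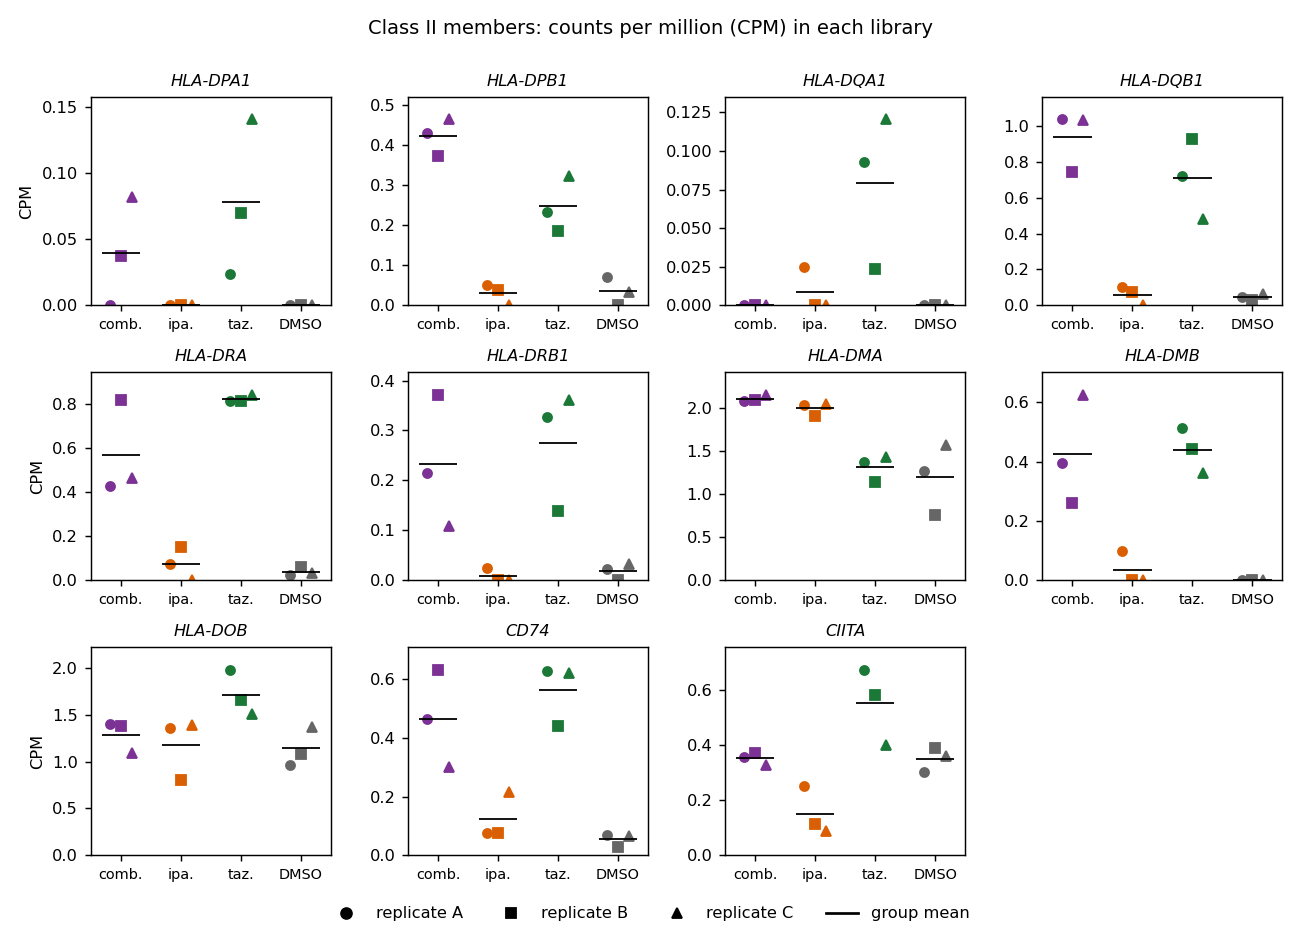
Level of 11 class II genes, in CPM on a linear axis from 0, in the combination, ipatasertib, tazemetostat and DMSO groups; points are libraries and lines are group means. HLA-DRA, HLA-DQB1, HLA-DPB1, HLA-DMB and CD74 are near 0 without tazemetostat, whereas HLA-DMA is highest in the groups with ipatasertib (1.90 to 2.15 CPM).

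The genes of the RFX complex, which binds the X box of both classes, changed by small amounts. RFXAP averaged 12.2 ± 1.04 CPM in combination cells, 11.7 ± 0.499 CPM in ipatasertib cells, 11.4 ± 0.891 CPM in tazemetostat cells and 9.33 ± 0.366 CPM in DMSO cells (SD, n = 3 each). It was higher than DMSO in all 3 comparisons, by 0.38 ± 0.09 with the combination (adjusted p = 0.000981), 0.34 ± 0.09 with ipatasertib (adjusted p = 0.00427) and 0.29 ± 0.09 with tazemetostat (adjusted p = 0.0134). The tazemetostat call was lost without DMSO A, DMSO B, tazemetostat B or tazemetostat C, at adjusted p-values of 0.0614, 0.0878, 0.118 and 0.0524. RFX5 was lower with the combination, at -0.20 ± 0.06 (adjusted p = 0.0106), a call lost without combination C (adjusted p = 0.0936) and without TMM factors (adjusted p = 0.406). RFXANK was lower with the combination, at -0.27 ± 0.09 (adjusted p = 0.0102), and with tazemetostat, at -0.23 ± 0.09 (adjusted p = 0.0384). Without TMM factors neither RFXANK change passed, with adjusted p-values of 0.186 and 0.153. Leaving out combination B took the combination change of RFXANK to -0.17 (adjusted p = 0.0686), and the tazemetostat change was lost without any 1 of DMSO A, DMSO B, DMSO C, tazemetostat B or tazemetostat C, at adjusted p-values of 0.0613 to 0.149.

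Whether the inhibitors together differed from the sum of their separate changes was asked with the interaction term of the same fit, the log2 change with the combination minus the sum of both single-agent changes. None of the 27 members tested passed, where 3.62% of all genes did, and 2 had an unadjusted p under 0.05. PSMB9 came nearest, at -0.51 ± 0.14 (adjusted p = 0.0547), and the other was ERAP2, at -0.28 ± 0.13 (adjusted p = 0.233). DESeq2 called 1 member, PSMB9, at -0.52 (adjusted p = 0.0285), and limma-voom called 0. Of all 14874 genes, DESeq2 called 433 above 0 and 495 below, and limma-voom called 270 and 262. For TAP2 the term was -0.09 ± 0.11, for TAP1 -0.03 ± 0.10, for ERAP1 -0.00 ± 0.10 and for HLA-B 0.08 ± 0.10. Class II terms were imprecise, with -1.55 ± 0.97 for HLA-DRA and -1.28 ± 0.82 for CD74. Without combination B, 3 members passed: PSMB9 at -0.53 (adjusted p = 0.0176), TAPBP at 0.26 (adjusted p = 0.0232) and ERAP2 at -0.36 (adjusted p = 0.026). With tazemetostat A left out as well, 6 members passed: these 3, HLA-C, HLA-E and RFXAP, the last at -0.35 (adjusted p = 0.0264). Many more of all genes passed in these fits. Without combination B, 1325 of 15058 genes passed above 0 and 1118 below. Without both libraries, 2565 of 15002 passed above 0 and 2201 below, so these calls are not read as particular to the members. A term that missed the threshold does not show that the changes added up.

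**Figure D4:**
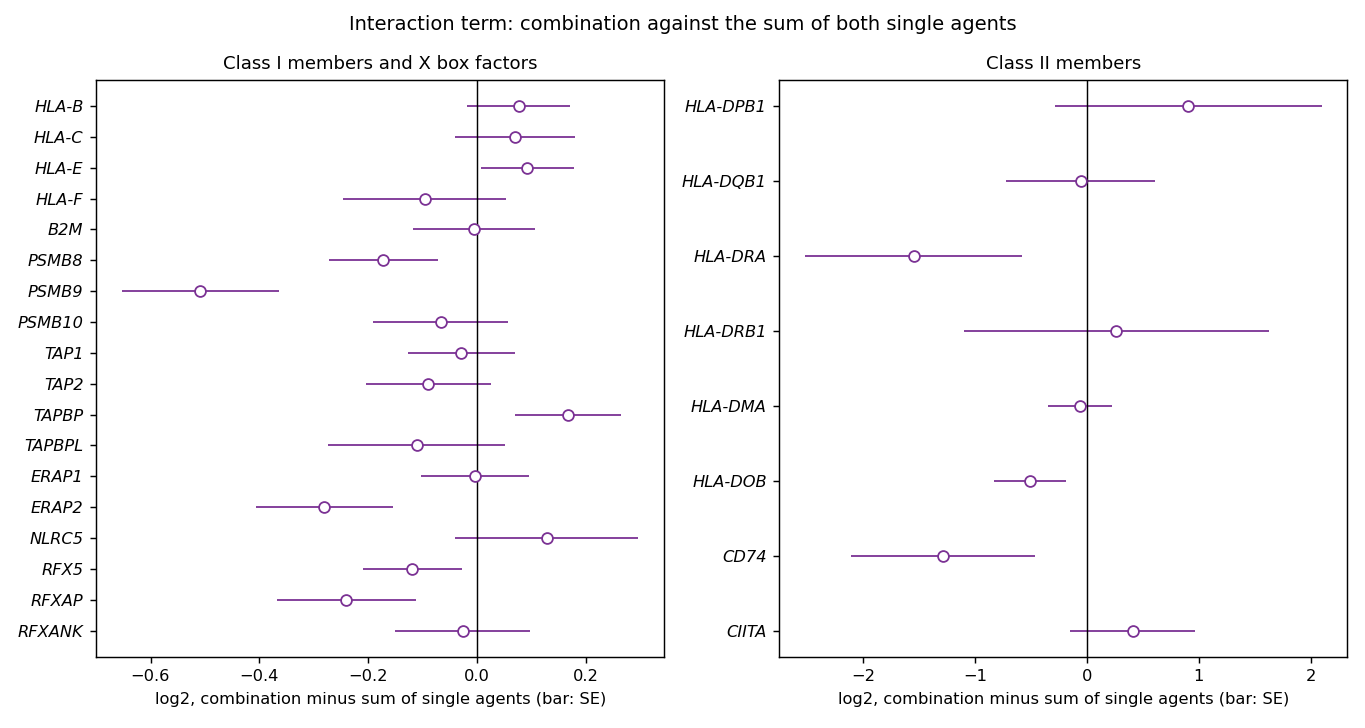
Interaction term (log2 change with the combination minus the sum of the changes with ipatasertib and with tazemetostat) of the 18 class I and X box factor genes and of 8 class II genes, with separate axes; bars are SE and no gene passed the test. HLA-DMB is left out because it had no DMSO counts; PSMB9 lies farthest from 0 in the left panel (-0.51).

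The chains were also compared between the combination and each inhibitor. Against ipatasertib alone, the class I gene that was higher was HLA-B, by 0.64 ± 0.07 (adjusted p = 2.56e-07), where 21.8% of all genes were higher. Against tazemetostat alone, 4 chains were higher, where 29.8% of all genes were: HLA-E by 0.46 ± 0.06 (adjusted p = 2.28e-06), HLA-C by 0.41 ± 0.08 (adjusted p = 0.000152), B2M by 0.27 ± 0.08 (adjusted p = 0.00701) and HLA-B by 0.26 ± 0.07 (adjusted p = 0.00236). HLA-C against ipatasertib was 0.14 ± 0.08 (adjusted p = 0.169) with all libraries and 0.23 (adjusted p = 0.00609) without combination B, which was the lowest combination library for this gene. TAPBP against tazemetostat was 0.12 ± 0.07 (adjusted p = 0.126) with all libraries and 0.25 (adjusted p = 0.000699) without combination B.

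In the genome, 21 of the 32 genes lie on chromosome 6, 3 each on chromosomes 5 and 16, and 1 each on chromosomes 1, 12, 13, 15 and 19. In the RefSeq gene order the class II gene HLA-DOB is followed by TAP2, PSMB8, TAP1 and PSMB9, then, after other genes, by HLA-DMB and HLA-DMA. In an annotation of gene spans, 22 of the 32 overlap another gene and 13 overlap a gene that the count files also list, such as PSMB9 with PSMB8 and TAP1. The strand setting and annotation of the counting are not given, so how far reads of such pairs were mixed is not known. Reads listed as ambiguous, which were left out, made up 1.57% to 1.83% of a library.

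Other genes of the pathway were counted in 6 lists, of which 47 of 51 genes could be tested. With the combination 16 were higher and 20 lower than with DMSO, with ipatasertib 10 were higher and 19 lower, and with tazemetostat 15 were higher and 12 lower. The shares of all genes tested were 36.5% higher and 34.5% lower for the combination, 25.4% and 28.7% for ipatasertib and 25.1% and 20.9% for tazemetostat. All 3 standard proteasome subunits that PSMB8, PSMB9 and PSMB10 replace were lower with the combination, PSMB5 at -0.34 ± 0.07 (adjusted p = 0.000154), PSMB6 at -0.51 ± 0.07 (adjusted p = 1.38e-06) and PSMB7 at -0.32 ± 0.07 (adjusted p = 0.000198). All 3 were also lower with ipatasertib alone, at -0.26, -0.32 and -0.27 in that order, and PSMB5 lost this call without TMM factors (adjusted p = 0.0868). With tazemetostat none of the 3 passed with all 12 libraries. Without tazemetostat A, PSMB5 (adjusted p = 0.00499) and PSMB6 (adjusted p = 0.0044) did, both at -0.23. IRF1, a transcription factor induced by interferon, was lower with the combination, at -0.21 ± 0.09 (adjusted p = 0.043), and did not pass with either inhibitor alone when all 12 libraries were used. Without any 1 of DMSO A, DMSO B, ipatasertib C, combination B or combination C this IRF1 call was lost, at adjusted p-values of 0.0622 to 0.161. It was also lost without TMM factors, at -0.07 (adjusted p = 0.486), and with a mean count of at least 10 as the filter, at -0.18 (adjusted p = 0.0727). Without tazemetostat A, IRF1 was lower with tazemetostat, at -0.23 (adjusted p = 0.0394). IFNGR2, one chain of the interferon gamma receptor, was higher with the combination, by 0.69 ± 0.07 (adjusted p = 2.51e-08), and with ipatasertib, by 0.37 ± 0.07 (adjusted p = 0.000145), whereas IFNGR1, the other chain, had changes of -0.16 ± 0.09 with the combination, -0.04 ± 0.09 with ipatasertib and -0.05 ± 0.09 with tazemetostat and passed in none. The change of IFNGR1 with the combination passed without combination B, at -0.27 (adjusted p = 0.00209), and with no filter on low counts, at -0.18 (adjusted p = 0.0429).

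The class I-like genes included the genes with the largest increases of these 6 lists. Of the 13 tested against DMSO, 9 were higher and 3 lower with the combination. These counts were 4 and 2 with ipatasertib and 7 and 3 with tazemetostat. Of all genes tested, 36.5% were higher and 34.5% lower with the combination, 25.4% and 28.7% with ipatasertib and 25.1% and 20.9% with tazemetostat. The lowest change in the list was -0.97, with the combination. ULBP1, a ligand of the activating receptor NKG2D on natural killer cells, averaged 9.82 ± 0.718 CPM in combination cells, 4.54 ± 0.472 CPM in ipatasertib cells, 3.25 ± 0.365 CPM in tazemetostat cells and 1.31 ± 0.310 CPM in DMSO cells (SD, n = 3 each). It rose by 2.91 ± 0.15 with the combination (adjusted p = 1.46e-12), by 1.81 ± 0.16 with ipatasertib (adjusted p = 2.07e-08) and by 1.32 ± 0.16 with tazemetostat (adjusted p = 2.06e-06). FCGRT, which encodes the neonatal Fc receptor, rose by 2.14 ± 0.15 with the combination (adjusted p = 1.23e-10), by 1.38 ± 0.16 with ipatasertib (adjusted p = 4.57e-07) and by 0.78 ± 0.16 with tazemetostat (adjusted p = 0.000497). CD1D, which presents lipids to natural killer T cells, rose by 2.44 ± 0.35 with the combination (adjusted p = 4.18e-06) and by 1.76 ± 0.36 with tazemetostat (adjusted p = 0.000637), with 0.13 ± 0.49 for ipatasertib (adjusted p = 0.839). AZGP1, a secreted class I-like protein, and RAET1L, another NKG2D ligand, also rose with tazemetostat, AZGP1 by 1.70 ± 0.40 (adjusted p = 0.00214) and RAET1L by 1.497 ± 0.41 (adjusted p = 0.00553).

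Of 7 listed genes for checkpoint ligands and costimulation 4 could be tested, CD274, PDCD1LG2, CD276 and ICAM1, and all 4 were lower in each comparison with DMSO. Of all genes tested, 34.5% were lower with the combination, 28.7% with ipatasertib and 20.9% with tazemetostat. The change of ICAM1 with ipatasertib, -0.22 (adjusted p = 0.00336), was -0.10 (adjusted p = 0.141) without TMM factors. CD274, which encodes PD-L1, averaged 0.518 ± 0.0789 CPM in combination cells, 0.822 ± 0.409 CPM in ipatasertib cells, 2.11 ± 0.428 CPM in tazemetostat cells and 3.36 ± 0.652 CPM in DMSO cells (SD, n = 3 each). It fell by 2.69 ± 0.29 with the combination (adjusted p = 9.08e-08), by 2.12 ± 0.28 with ipatasertib (adjusted p = 2.33e-06) and by 0.65 ± 0.22 with tazemetostat (adjusted p = 0.0184), a call lost without DMSO B (adjusted p = 0.094) or tazemetostat B (adjusted p = 0.0737). PDCD1LG2, which encodes PD-L2, fell by 2.75 ± 0.16 with the combination (adjusted p = 6.38e-12), by 1.58 ± 0.14 with ipatasertib (adjusted p = 1.13e-08) and by 0.65 ± 0.12 with tazemetostat (adjusted p = 0.000171). ICAM1, an adhesion molecule that binds T cells, was the only one of the 47 genes with an interaction when all 12 libraries were used, at 0.47 ± 0.08 (adjusted p = 0.00249). Without tazemetostat A 5 of the 47 genes passed, without combination B 6, and without both 13. Of all genes, 547 of 15069 passed above 0 and 499 below without tazemetostat A, and 1325 of 15058 and 1118 without combination B. Without both, 2565 of 15002 passed above 0 and 2201 below, so nothing is read from these counts. ICAM1 averaged 84.4 ± 3.02 CPM in combination cells, 108 ± 5.32 CPM in ipatasertib cells, 70.8 ± 1.18 CPM in tazemetostat cells and 126 ± 5.19 CPM in DMSO cells (SD, n = 3 each), so the combination lay above tazemetostat alone and below ipatasertib alone.

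**Figure D5:**
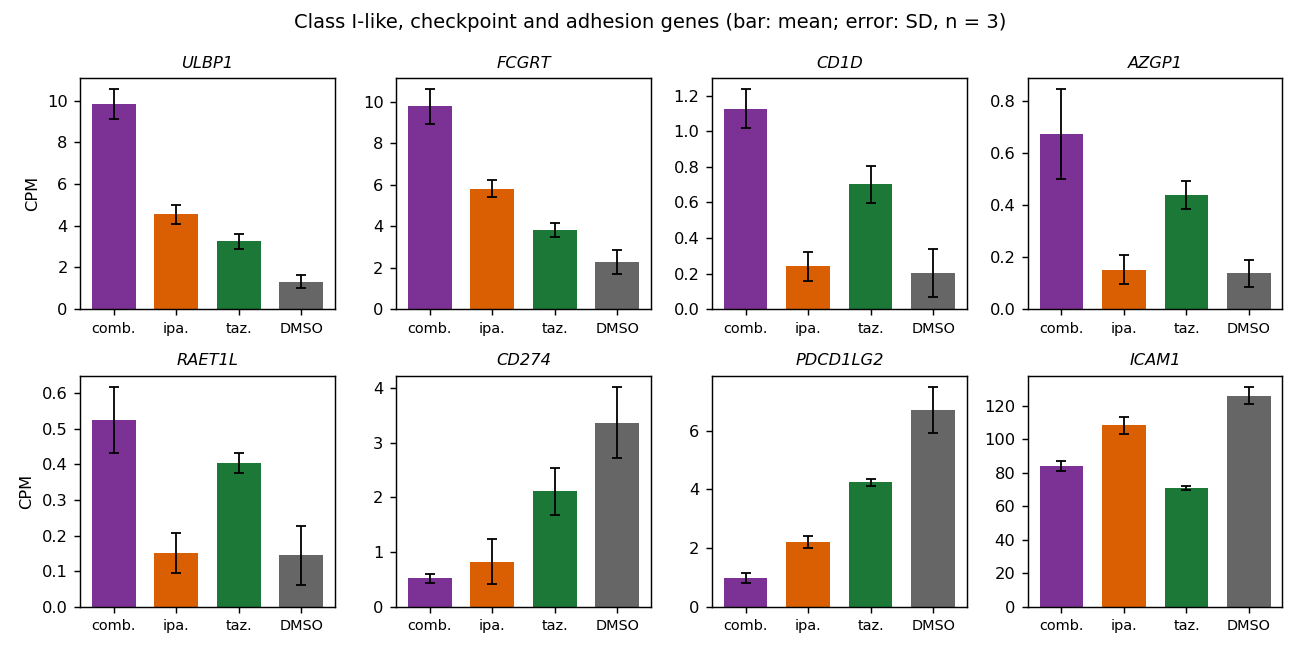
Mean level in CPM (bars from 0; error bars are SD, n = 3) of 8 other pathway genes in the combination, ipatasertib, tazemetostat and DMSO groups. ULBP1 and FCGRT are highest and CD274 and PDCD1LG2 lowest with the combination, and ICAM1 is lowest with tazemetostat (70.8 CPM).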

How the data were processed

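RNA from SUM149PT cells was made into libraries from polyadenylated RNA, per the labels' protocols. The authors deposited raw counts per gene for each of 12 libraries, and the submitters' processing notes name STAR, SAMtools, HTSeq, DESeq2 and the build hg19. Tool versions, the annotation and whether counting used strand were not given in the sources used here. Lines that name no gene, 29.8% to 38.6% of a library's reads, were left out. Counts were analysed here in R 4.3.3 with edgeR 4.0.16: filterByExpr kept 14874 genes, TMM factors scaled libraries (without them, totals alone), and 1 quasi-likelihood fit with a coefficient per group gave F-tests of 6 comparisons, adjusted by Benjamini-Hochberg over all genes tested, threshold 0.05. SE, which is approximate, was taken as the size of the log2 change over the square root of its F. Ratios of counts have exact 95% conditional intervals, and counts of 0 were set to a floor of 3 over the group. Intervals and floors cover counting error only, and a ratio to a floor leaves out the counting error of the other group. DESeq2 1.42.0, limma 3.58.1, other filters and scalings, and leaving out libraries served as alternatives. The fit was tested on simulated data. All 32 members are named, and of other pathway genes the 4 with the largest changes per comparison, the interferon genes and the standard proteasome subunits. Results of some listed genes are not reported here. Members and lists were chosen with earlier results of these data known. Replicate letters were checked: 2 of 18 same-letter correlations of deviations were over 0.1 (highest 0.30), against 3 of 36 between other letters (highest 0.18). With so few libraries this cannot exclude that the letters pair them. The main fit used no pairing, and a replicate block served as an alternative.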

Additional observations from a re-analysis of the deposited data

How the results depend on the processing

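Over the 27 members tested, 1893 of the values with 1 library left out kept their side of the threshold, 32 lost the call and 19 gained one. Values that passed in neither fit counted as kept, whatever their direction. Under the other alternatives 1459 kept their side, 60 lost the call, 26 gained it and 1 passed with its direction turned round. That one was RFXANK for the combination against tazemetostat, at 0.18 without tazemetostat A and combination B and -0.04 with all libraries; the cause was not tested. With a replicate block on the letters, all 12 counts of class I and class II members changed were those of the fit without it, 14 and 7 for the combination against DMSO, 10 and 1 for ipatasertib, 7 and 7 for tazemetostat, and none of the 27 members gained or lost a call. Among other pathway genes the block gave IFNGR1 a call for the combination against DMSO, at -0.17 (adjusted p = 0.0441), and 2 interaction calls in place of 1. Of all 14874 genes, 361 then had an interaction above 0 and 392 below. A test against a 1.5-fold change asks more. Against DMSO it left class I counts of 4 for the combination, 2 for ipatasertib and 0 for tazemetostat. Of all 14874 genes, 2446 were then higher and 1403 lower for the combination, 685 and 404 for ipatasertib, and 936 and 158 for tazemetostat. For the combination, class I counts were 0 against ipatasertib and 3 against tazemetostat. Of all genes, 998 were higher and 123 lower against ipatasertib, and 1192 and 807 against tazemetostat. Class II counts were 0 for ipatasertib against DMSO and 0 for the combination against tazemetostat. A mean count of at least 10 removed scarce class II genes. It left 4 for the combination and 4 for tazemetostat against DMSO and 3 for the combination against ipatasertib. Of all 14392 genes, 5430 were then higher and 4868 lower, 3426 and 3298, and 3117 and 2564, in that order. Fitting only the combination and ipatasertib groups also left 3, with 2788 of 14249 genes higher and 2141 lower. Class II counts moved to 2 for ipatasertib with limma-voom, and to 2 for the combination against tazemetostat with no filter on low counts. Of all genes, 3755 of 14874 were then higher and 4246 lower with limma-voom. With no filter, 4456 of 19793 were higher and 4709 lower. Leaving out 1 library gave 1 to 2 for each of these 2 comparisons, 2 without ipatasertib A and 2 without combination B. Of all genes, 3327 of 15065 were higher and 3681 lower for ipatasertib without ipatasertib A. Without combination B, 5025 of 15058 were higher and 4241 lower for the combination against tazemetostat. Class I interaction calls, 0 with all libraries, came to 1 (PSMB9) with total counts, with no filter and with DESeq2. Of all genes, 216 of 14874 passed above 0 and 561 below with total counts, and 304 of 19793 and 601 with no filter. With DESeq2, 433 of 14874 passed above 0 and 495 below. Class I calls came to 3 without combination B (range 0 to 3 over single libraries) and to 5 without tazemetostat A and combination B. Of all genes, 1325 of 15058 then passed above 0 and 1118 below without combination B. The same counts were 2565 of 15002 and 2201 without tazemetostat A and combination B. Without both of those libraries 11 class I members changed with tazemetostat, 2 higher and 9 lower (HLA-E among the lower), and HLA-DRB1 no longer passed the filter. In that fit 4400 of all 15002 genes were higher with tazemetostat and 4288 lower. For the class counts, no interaction fit on the groups of the comparison alone differs from the fit on all groups, so it was not run separately. The settings for other pathway genes were added after the data were seen: 1993 of their values kept their side, 62 lost and 35 gained a call. Depth limits the class II values: with 0 to 6 DMSO counts a gene, changes are known only within wide limits. For tazemetostat against DMSO, the 95% interval of the count ratio was 8.35 to 82.0 for HLA-DRA and 6.17 to 47.0 for HLA-DQB1. It was 2.38 to 25.9 for HLA-DPB1 and 4.42 to 28.3 for CD74. The interval of HLA-DRB1 is given above, and HLA-DMB, with 0 DMSO counts, has none.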
